A study of Mus musculus with 12 samples.

Results

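The mitochondrial protein import genes are the nuclear genes whose proteins receive, move, cut and insert other proteins made in the cytosol and sent to mitochondria. They were taken by symbol from GENCODE M21 as the protein-coding genes whose name is Timm or Tomm followed by a number, together with Pam16, Dnajc19, Grpel1, Hspa9, Samm50, Mtx1, Mtx2, Pmpca, Pmpcb, Chchd4 and Oxa1l. The rule found 36 genes among the 49315 in the count tables, 21811 of which are protein-coding. RNA was sequenced from mouse embryonic fibroblasts (MEFs), connective tissue cells grown from mouse embryos, in 4 groups of 3 libraries. Cells of all groups were kept in DMEM with 10% FBS, and the control group received the solvent DMSO. The other cells were treated for 24 h with rapamycin at 20 ng/ml, Torin1 at 250 nM or RapaLink-1 at 10 nM. The sources used here give no strain, passage or genotype of the cells. Whether the 3 libraries of each group were grown as separate cultures is also not stated. The p-values set group differences against the spread among these libraries, which may be technical. They therefore may not extend to new cultures.

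Nearly all mitochondrial proteins are encoded in the nucleus and enter through TOM, the pore complex of the outer membrane. From there the SAM complex builds barrel proteins into the outer membrane, and small TIM chaperones and the Chchd4 oxidation pathway serve the space between the membranes, while TIM22 inserts carriers into the inner membrane and TIM23 with its ATP-driven motor passes proteins with a cleavable leader into the matrix. Rapamycin is an allosteric inhibitor of mTOR complex 1, a kinase complex that promotes growth and the making of mitochondrial proteins, Torin1 competes with ATP at the mTOR kinase itself, and in RapaLink-1 a linker ties rapamycin to an inhibitor of the mTOR kinase site.

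The promoters of the genes carried one searched sequence more often than other promoters did. Promoters from RefSeq on GRCm38.p6, 250 bases before to 50 bases after a gene's start, were matched for 32 of the 36 genes, and Hspa9, Timm21, Tomm40l and Tomm7 had no entry. On either strand, the ETS-like letters CCGGAAG lay in 14 of the 32 (43.8%), against 9.93% of all 27025 genes with a promoter in the table and 19.7% of the 10250 protein-coding genes that passed the filter on low counts. The E-box letters CACGTG lay in 5 (15.6%), against 8.09% and 11.6%. The 32 are not wholly like the filtered comparator. They include Timm8a2, with the ETS-like letters, and Tomm20l, with the E-box letters, which did not pass the filter. The canonical NRF1 palindrome and the ATF4-like letters TGATGNAA were in none of the 32, against 1.07% and 2.27% for the first and 4.51% and 2.72% for the second. A match is a run of letters and not a measured binding site, and its absence says only that these letters are not in the window.

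The 250 bases before the start are shown for 4 genes of the outer membrane complex because their letters differ in the same complex and because 3 of them fell with every compound while Tomm20 did not. Capitals mark runs of the searched letters on either strand. Tomm22 (chr15:79670618-79670867 on the plus strand) holds the ETS-like letters as a palindrome read on both strands, Tomm70a (chr16:57121464-57121713 on the plus strand) holds them at 2 separate places, Tomm20 (chr8:126945922-126946171 on the minus strand) holds the E-box letters, and Tomm40 (chr7:19715430-19715679 on the minus strand) holds none of the 4 motifs. Each is written 5′ to 3′ in the direction of its gene.
Tomm22: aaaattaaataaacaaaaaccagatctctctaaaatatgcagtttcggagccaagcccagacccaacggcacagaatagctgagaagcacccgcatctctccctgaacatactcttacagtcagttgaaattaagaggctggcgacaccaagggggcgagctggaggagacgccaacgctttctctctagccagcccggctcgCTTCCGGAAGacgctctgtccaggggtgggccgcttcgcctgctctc
Tomm70a: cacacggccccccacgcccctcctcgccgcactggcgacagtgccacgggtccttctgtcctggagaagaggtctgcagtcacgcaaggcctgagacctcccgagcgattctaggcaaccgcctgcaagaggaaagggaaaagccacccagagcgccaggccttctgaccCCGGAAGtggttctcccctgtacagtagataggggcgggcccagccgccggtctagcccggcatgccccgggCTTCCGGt
Tomm20: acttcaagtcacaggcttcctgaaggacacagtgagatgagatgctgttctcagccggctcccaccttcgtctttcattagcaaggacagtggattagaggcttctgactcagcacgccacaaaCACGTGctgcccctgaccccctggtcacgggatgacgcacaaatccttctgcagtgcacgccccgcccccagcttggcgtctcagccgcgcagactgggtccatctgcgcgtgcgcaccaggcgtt
Tomm40: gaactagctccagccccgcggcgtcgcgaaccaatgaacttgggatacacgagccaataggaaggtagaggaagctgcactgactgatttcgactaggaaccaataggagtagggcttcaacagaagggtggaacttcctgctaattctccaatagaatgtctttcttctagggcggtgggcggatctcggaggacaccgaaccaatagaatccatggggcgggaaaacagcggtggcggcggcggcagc

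Genes with and without the ETS-like letters are set side by side as a description, and their difference was not tested. Against DMSO, the 13 tested genes with the letters had a median log2 change of -0.23 with rapamycin, -0.43 with Torin1 and -0.42 with RapaLink-1, and the 17 tested genes with a promoter but without the letters had medians of -0.32, -0.48 and -0.58. Under Torin1 the changes ranged from -0.86 to 0.13 with the letters and from -1.14 to 0.44 in the larger set without them. Among the genes shown, Tomm40 fell more with Torin1 and RapaLink-1 than Tomm22 and Tomm70a. With rapamycin, Tomm40 (-0.53 ± 0.028, SE) and Tomm70a (-0.53 ± 0.019) did not differ beyond their errors. The genes shown were picked partly by how they changed, so their values do not compare promoters with and without the letters.

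The libraries held 30075870 to 39423703 counts. Import genes took 0.325% to 0.3268% of them in the controls, against 0.2538% to 0.2583% under rapamycin, 0.2417% to 0.2448% under Torin1 and 0.2449% to 0.2475% under RapaLink-1. No treated library overlapped the controls in this share. In bulk samples, fewer cells of a type and less RNA per cell cannot be told apart. All 8 fibroblast markers passed the filter, and their summed level was 21090 to 21490 CPM (counts scaled by library size) in the controls, against 19790 to 20160 under rapamycin, 20820 to 21500 under Torin1 and 18610 to 18930 under RapaLink-1. The single markers were not steady: 3 were called higher and 5 lower with rapamycin, 5 and 3 with Torin1, and 3 and 4 with RapaLink-1. With Torin1 their log2 changes ran from -1.28 for the collagen gene Col3a1 to 1.01 for the fibronectin gene Fn1. Col3a1 was at 226.9 CPM against 552 with DMSO, and Fn1 at 8484 against 4201. Another collagen gene, Col1a2, was at 3953 against 7024. Markers of epithelial, endothelial, white blood and muscle cells summed to at most 2.77 CPM per cell type in any library, with Myod1 and Myog at 0 counts in all 12. The endothelial sum was 0.76 to 1.48 CPM in the controls, against 1.12 to 1.51 under rapamycin, 2.24 to 2.38 under Torin1 and 2.45 to 2.77 under RapaLink-1. In the same order, the white blood cell sum was 0.21 to 0.55, 0.45 to 0.75, 1.11 to 1.28 and 0.98 to 1.38 CPM. All genes of the mitochondrial genome together, not only those for proteins, took 1.08% to 1.11% of the control libraries. Their share was larger in treated ones (1.29% to 1.32% under rapamycin, 1.36% to 1.39% under Torin1, 1.20% to 1.21% under RapaLink-1). It moved the other way from the share of the nuclear import genes. The part of these shifts in the results was not tested.

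Most import genes fell with each compound. Of the 36 genes, 34 had enough counts to be tested, while Timm8a2 (0 to 1 count per library) and Tomm20l (0 to 6 counts) did not and are left out of every count that follows. By edgeR's quasi-likelihood test, called at a Benjamini-Hochberg adjusted p under 0.05, 30 of the 34 were lower with rapamycin than with DMSO and 1 was higher, where 32.2% of all 15917 tested genes were lower and 27.5% higher. With Torin1, 28 were lower and 3 higher, against 38.3% and 39.8% of all tested genes. With RapaLink-1, 29 were lower and 2 higher, against 37.9% and 38.7%. The share of the import genes called lower (88.2%, 82.4% and 85.3%) was thus above the background in each comparison, and the share called higher (2.94%, 8.82% and 5.88%) below it. The 3 comparisons share the DMSO libraries.

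The falls were modest in size. The median log2 change of the 34 genes was -0.28 with rapamycin, -0.43 with Torin1 and -0.42 with RapaLink-1, where the median of all tested genes was 0.0043, 0.039 and 0.026. None of the genes was at least 2-fold lower with rapamycin, while Tomm40, Timm8a1 and Timm13 were with Torin1 and with RapaLink-1. The share of all tested genes at least 2-fold lower was not computed. The treated and DMSO libraries did not overlap for 30 of the 34 genes with rapamycin (63% of all tested genes) and for 33 under Torin1 as under RapaLink-1 (78.5% and 77.6%). The genes Tomm20, Tomm34 and Oxa1l were called lower with rapamycin and higher with Torin1. How many of all tested genes had such opposite calls was not computed. With the libraries scaled to the upper quartile, which by its construction shifts every gene alike and raised the median of all tested genes by 0.13 with Torin1 and 0.14 with RapaLink-1, the calls were 26 lower and 2 higher with rapamycin, 27 and 6 with Torin1 and 27 and 5 with RapaLink-1, while the share of higher genes among all called genes went from 46.1% to 57.4%, from 51% to 60.4% and from 50.5% to 61.3%. The median of the import genes minus that of all tested genes was -0.28, -0.47 and -0.45, and -0.23, -0.35 and -0.34 when the test was limited to genes averaging 5 CPM or more, called the 5 CPM filter.

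**Figure D1:**
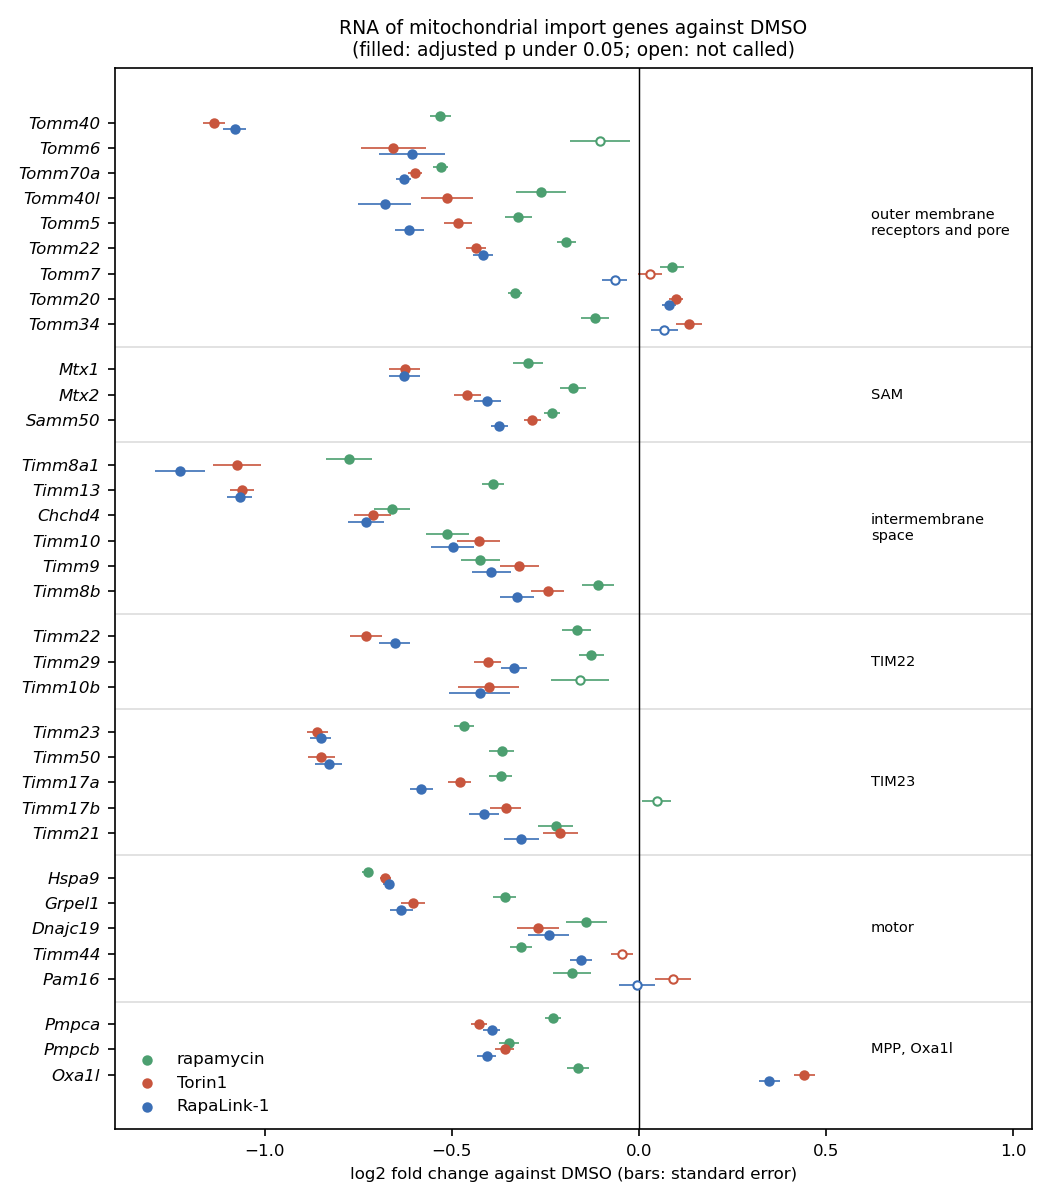
Log2 fold change against DMSO of the 34 tested genes (horizontal axis), grouped by role and ordered by the Torin1 value within each role; points are the fitted changes of 3 against 3 libraries, bars the standard error, filled points the called ones. Most points lie left of 0, Tomm40, Timm8a1 and Timm13 reach beyond -1 with Torin1 and RapaLink-1, and Oxa1l lies at 0.44 with Torin1 and -0.16 with rapamycin.

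Values of other nuclear genes for mitochondrial proteins are given beside these values as a description. Of all tested genes, 32.2%, 38.3% and 37.9% were lower than DMSO with rapamycin, Torin1 and RapaLink-1, and 27.5%, 39.8% and 38.7% higher. Of 78 tested mitochondrial ribosomal protein genes, 70, 69 and 71 (89.7%, 88.5% and 91%) were lower and 3, 5 and 3 higher. Their medians were -0.28, -0.36 and -0.47. Of 76 tested respiratory chain genes, 44, 60 and 67 (57.9%, 78.9% and 88.2%) were lower and 8, 8 and 6 higher, with medians of -0.10, -0.30 and -0.40.

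Per length of exon, the genes differed widely in level, and the order was led by the motor chaperone. In the DMSO libraries Hspa9 stood at 278 ± 1.96 CPM per kb (SD, n = 3), followed by Samm50 at 94.3 ± 0.724, Tomm22 at 87.7 ± 1.77, Tomm70a at 68.8 ± 0.273 and Timm13 at 68.0 ± 2.38. The last pair did not differ beyond its spread. The lowest tested genes were Dnajc19 at 4.76 ± 0.259, Timm10b at 2.49 ± 0.0416 and Tomm40l at 2.47 ± 0.0418 CPM per kb, the last 2 within each other's spread. With Torin1, Timm13 was at 32.6 CPM per kb, below Tomm20 at 55.8, which it exceeded with DMSO (52.1 for Tomm20).

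**Figure D2:**
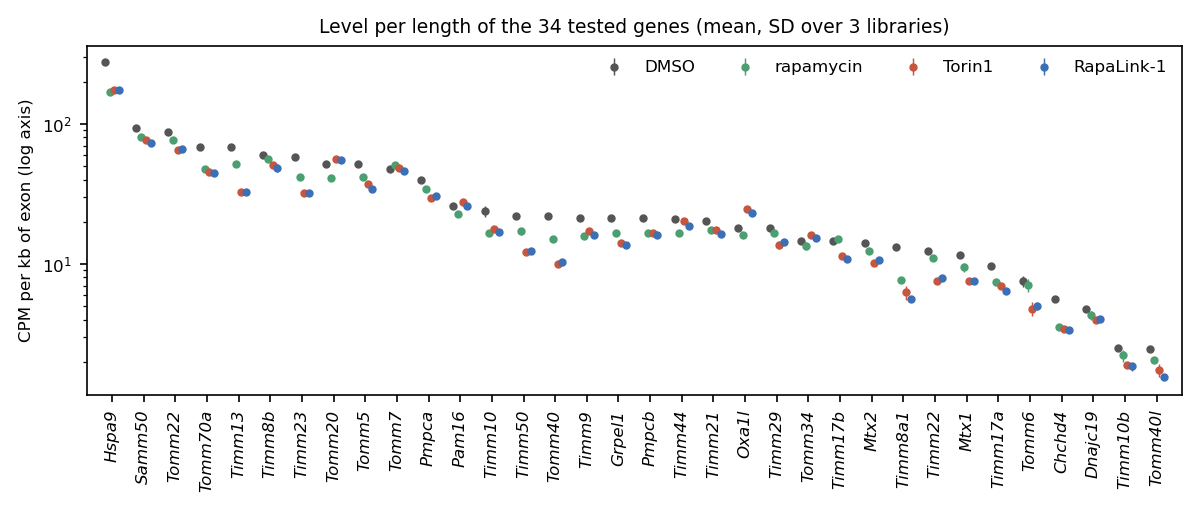
Mean CPM per kb of exon (log axis) of each tested gene in the 4 groups, with the SD over 3 libraries, ordered by the DMSO level. Hspa9 is highest in every group (278 with DMSO and 168 with rapamycin) and Tomm40l lowest in all 4 (2.47 with DMSO and 1.54 with RapaLink-1).

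In the outer membrane complex, the pore gene fell most with Torin1 and RapaLink-1, level with the receptor Tomm70a under rapamycin, and the receptor Tomm20 rose with Torin1 and RapaLink-1. Of the 9 tested genes grouped here, 7 were lower and 1 higher with rapamycin, 6 lower and 2 higher with Torin1, and 6 lower and 1 higher with RapaLink-1. These counts include Tomm34, whose protein is cytosolic and which was called lower with rapamycin and higher with Torin1. Of all tested genes, 32.2%, 38.3% and 37.9% were lower with rapamycin, Torin1 and RapaLink-1, and 27.5%, 39.8% and 38.7% higher. Of the 34 import genes, 88.2%, 82.4% and 85.3% were lower. Tomm40 (ENSMUSG00000002984, chr7:19701313-19715438, minus strand), which forms the pore itself, read 97.8, 98.5 and 100.1 CPM with DMSO, 68.1, 68.0 and 68.8 with rapamycin, 44.4, 47.0 and 43.6 with Torin1 and 46.9, 47.3 and 46.0 with RapaLink-1. Every treated library lay below every control, and the Torin1 and RapaLink-1 libraries lay below those of rapamycin. Its log2 changes against DMSO were -0.53 ± 0.028 (SE), -1.14 ± 0.030 and -1.08 ± 0.030, that is 1.45-fold, 2.20-fold and 2.11-fold lower, with adjusted p of 9.94e-42, 7.63e-81 and 3.96e-78. Tomm40l (ENSMUSG00000005674, chr1:171216011-171222514, minus strand), another form of the pore, read 12.5, 12.9 and 12.6 CPM with DMSO, 10.7, 10.7 and 10.4 with rapamycin, 9.18, 9.64 and 7.93 with Torin1 and 7.90, 8.14 and 7.70 with RapaLink-1. Its libraries stepped down without overlap from DMSO to rapamycin to the other compounds, with changes of -0.26, -0.51 and -0.68, but 64.3% of its exonic bases overlap Nr1i3 on the opposite strand and the strand setting of the counting is not given, so its counts are uncertain (Nr1i3 held 229 counts in all 12 libraries, Tomm40l 4236).

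The 2 main receptors parted. Tomm70a, the receptor for carrier proteins, read 261, 260.5 and 259 CPM with DMSO, 181, 179.9 and 179.7 with rapamycin, 172, 173 and 171 with Torin1 and 168, 165 and 172 with RapaLink-1 and fell by 0.53, 0.60 and 0.63 on the log2 scale (adjusted p = 8.51e-61, 3.21e-68 and 6.42e-71). Its treated libraries lay close together and far below the controls. Tomm20 (ENSMUSG00000093904, chr8:126930667-126945844, minus strand), the receptor for cleavable leaders, read 254, 258 and 255 CPM with DMSO, 205, 202 and 202 with rapamycin, 276, 276 and 269.7 with Torin1 and 268, 274 and 269 with RapaLink-1. The rapamycin libraries lay below the controls and the Torin1 and RapaLink-1 libraries above them, with no overlap between any treated group and DMSO. Its changes were -0.33 ± 0.019 with rapamycin, 0.10 ± 0.018 with Torin1 and 0.081 ± 0.018 with RapaLink-1 (adjusted p = 5.13e-38, 4.54e-07 and 3.56e-05), and all 3 calls held under every alternative scaling. Some annotated copies of Tomm20 share at least 95% of bases over 150 or more, and together they held far fewer counts (302 in Gm14494, the fullest) than Tomm20 (105657). How reads matching several genes were treated is not given, so these counts cannot show how many reads of Tomm20 were affected.

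Tomm34 (ENSMUSG00000018322, chr2:164053540-164071169, minus strand), a cytosolic co-chaperone of import, read 44.8, 44.3 and 43.9 CPM with DMSO, 42.5, 37.6 and 42.1 with rapamycin, 47.3, 50.4 and 48.0 with Torin1 and 47.0, 46.7 and 45.7 with RapaLink-1. Its changes were -0.12 ± 0.037 with rapamycin, 0.13 ± 0.036 with Torin1 and 0.068 ± 0.036 with RapaLink-1, the last not called (adjusted p = 0.0775). Without rapamycin replicate 2, the lowest of its group, the rapamycin change was -0.068 and no longer called (adjusted p = 0.129). The rapamycin call was also lost under upper-quartile scaling (-0.054, 0.196) and with the 5 CPM filter (-0.059, 0.137). The RapaLink-1 value was called higher under both settings (0.21 and 0.15, adjusted p = 1.1e-07 and 6.34e-05) and with only the 2 groups fitted (0.079, 0.0281). The central receptor Tomm22 changed by -0.19, -0.44 and -0.42 and the small subunit Tomm5 by -0.32, -0.48 and -0.61, all called lower. Tomm6 changed by -0.10, -0.66 and -0.61, the first not called, and 75.95% of its exonic bases are shared with Gm21981 on the same strand, so its counts are uncertain. Tomm7, another small subunit, changed by 0.088, 0.030 and -0.065. Only its rapamycin value was called, as higher (adjusted p = 0.0142), and this call was lost by DESeq2 (adjusted p = 0.119) and without DMSO replicate 1, rapamycin replicate 1 or rapamycin replicate 2 (0.0533, 0.0886 and 0.0616), as well as without a filter on low counts (0.0563). The Torin1 value of Tomm7 was called higher under upper-quartile scaling (0.16, adjusted p = 7.1e-06) and with the 5 CPM filter (0.12, 0.000446). Its RapaLink-1 value was called higher under upper-quartile scaling (0.073, adjusted p = 0.0384), and lower with DESeq2 size factors (-0.070), without a filter (-0.080) and without RapaLink-1 replicate 1 (-0.080) or 3 (-0.090).

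**Figure D3:**
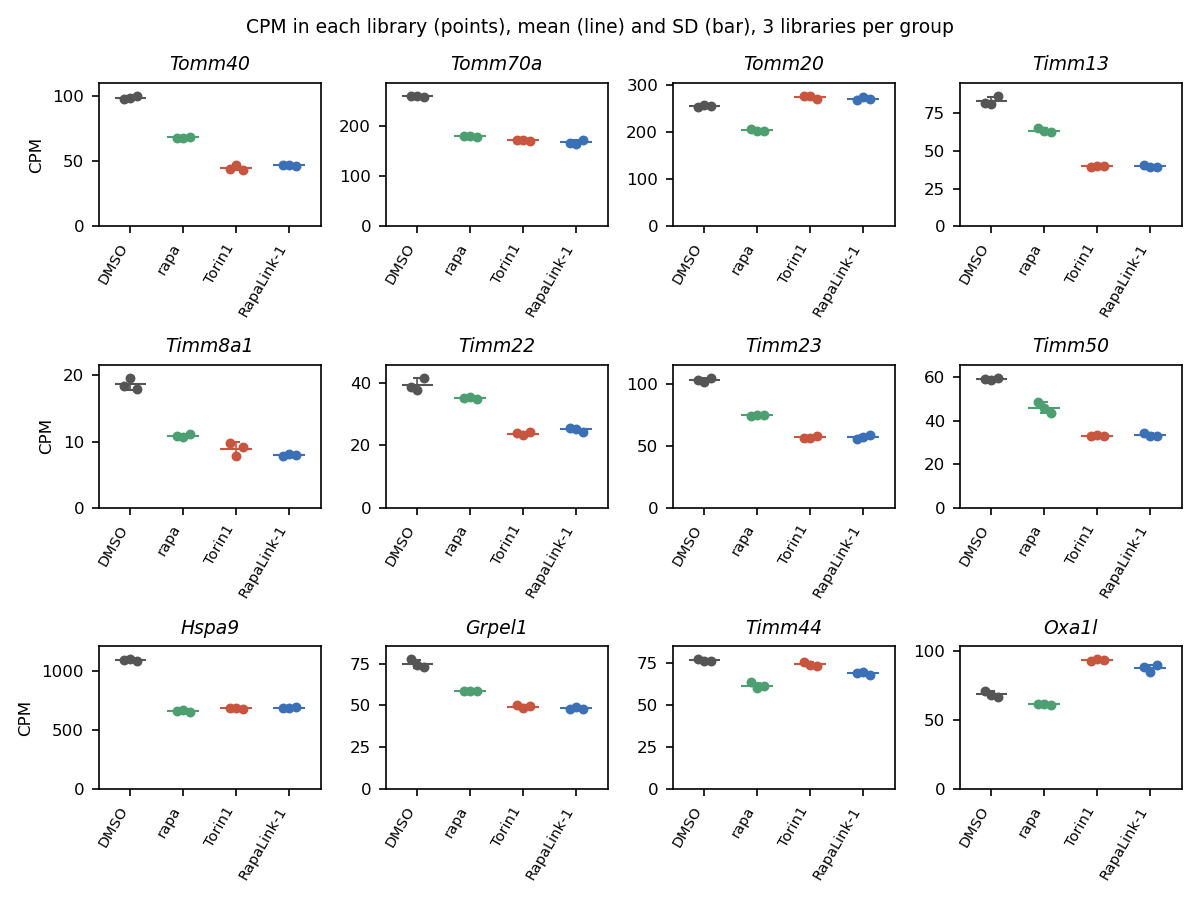
CPM (vertical axis, from 0) of 12 genes in each of the 12 libraries, with the mean as a line and the SD over 3 libraries as a bar. Tomm40, Timm13, Timm22, Timm23 and Timm50 step down from DMSO to rapamycin to the other compounds, Hspa9 sits between 656 and 693 in every treated library, and Tomm20 and Oxa1l are lowest with rapamycin.

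All 3 genes of the SAM complex were lower with each compound, where 82.4% to 88.2% of the 34 import genes were. Of all tested genes, 32.2% to 38.3% were lower. Mtx1 (ENSMUSG00000064068, chr3:89209081-89227088, minus strand), a metaxin on the cytosolic face of the complex, read 42.4, 40.8 and 41.2 CPM with DMSO, 34.8, 35.7 and 31.2 with rapamycin, 26.9, 26.9 and 26.9 with Torin1 and 26.4, 27.0 and 27.1 with RapaLink-1. The groups did not overlap except Torin1 and RapaLink-1 with each other. Mtx1 changed by -0.30 ± 0.039, -0.63 ± 0.041 and -0.63 ± 0.041 (adjusted p = 1.35e-11, 2.05e-32 and 1.76e-32). On the opposite strand, 21.2% of its exonic bases overlap Gm43737 and 8.87% overlap Thbs3. Over all libraries these held 3163 and 35794 counts, against 13649 for Mtx1, so its counts are uncertain. Its partner Mtx2 (ENSMUSG00000027099, chr2:74825803-74878431, plus strand) read 51.2, 51.2 and 52.1 CPM with DMSO, 45.0, 47.3 and 44.7 with rapamycin, 38.0, 38.5 and 36.1 with Torin1 and 37.9, 39.1 and 39.6 with RapaLink-1. The order of the groups was the same, with changes of -0.18, -0.46 and -0.40. Samm50, the barrel that does the insertion, changed by -0.23, -0.29 and -0.37, and RapaLink-1 was below Torin1 by -0.088 ± 0.023 (adjusted p = 0.00106), a call lost without RapaLink-1 replicate 2 (-0.063, adjusted p = 0.0578).

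In the intermembrane space, 6 of 6 tested genes were lower with each compound. The share was 82.4% to 88.2% over the 34 import genes and 32.2% to 38.3% over all tested genes. With Torin1 and RapaLink-1 the 2 small chaperones Timm8a1 and Timm13 fell by more than 1 on the log2 scale, as Tomm40 did. Timm8a1 (ENSMUSG00000048007, chrX:134537256-134541865, minus strand), which with Timm13 escorts certain inner membrane proteins and whose human form is the deafness-dystonia gene, read 18.4, 19.7 and 18.0 CPM with DMSO, 10.9, 10.7 and 11.1 with rapamycin, 9.72, 7.80 and 9.13 with Torin1 and 7.84, 8.09 and 7.97 with RapaLink-1. All 9 treated libraries lay far below the controls. Timm8a1 was 1.71-fold lower with rapamycin, 2.10-fold with Torin1 and 2.34-fold with RapaLink-1, on the log2 scale -0.78 ± 0.061, -1.07 ± 0.064 and -1.23 ± 0.066 (adjusted p = 7.53e-25, 3.02e-36 and 2.75e-41). Its partner Timm13 (ENSMUSG00000020219, chr10:80899450-80900969, minus strand) read 82.0, 81.2 and 86.6 CPM with DMSO, 65.4, 63.0 and 62.4 with rapamycin, 39.4, 40.0 and 40.3 with Torin1 and 41.0, 39.3 and 39.1 with RapaLink-1. Rapamycin lay between the controls and the other 2 compounds without overlap, and the log2 changes were -0.39 ± 0.030, -1.06 ± 0.032 and -1.07 ± 0.032 (adjusted p = 3e-26, 1.26e-72 and 7.65e-73). Timm8b, a relative of Timm8a1, fell less, by 0.11, 0.24 and 0.33, and its rapamycin call was lost by DESeq2 (adjusted p = 0.0685) and without DMSO replicate 1, DMSO replicate 3 or rapamycin replicate 2 (0.15, 0.0645 and 0.0939). That call was also lost under upper-quartile scaling (-0.047), with the 5 CPM filter (-0.052) and with only the 2 groups fitted (-0.086).

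Some genes of this space gave no call between compounds. Chchd4, the oxidase that traps small proteins by disulfide bonds, read 28.8, 28.9 and 29.6 CPM with DMSO, 17.9, 19.0 and 18.3 with rapamycin, 17.0, 18.7 and 17.5 with Torin1 and 17.3, 16.7 and 18.6 with RapaLink-1. All 9 treated libraries lay between 16.7 and 19.0 CPM and overlapped each other, and the changes against DMSO were -0.66, -0.71 and -0.73. Timm9 and Timm10, partners in the chaperone that guides carriers, changed by -0.42, -0.32 and -0.39 and by -0.51, -0.43 and -0.50. Torin1 minus rapamycin was -0.052 ± 0.053 for Chchd4 (95% interval -0.16 to 0.053), 0.10 ± 0.055 for Timm9 (-0.0036 to 0.21) and 0.084 ± 0.061 for Timm10 (-0.037 to 0.20).

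In TIM22, the insertase for carriers, the 3 genes were lower with Torin1 and RapaLink-1, and 2 of them with rapamycin. Lower genes made up 82.4% to 88.2% of the 34 import genes and 32.2% to 38.3% of all tested genes. Timm22 (ENSMUSG00000020843, chr11:76406952-76416292, plus strand), its channel, read 38.7, 37.9 and 41.8 CPM with DMSO, 35.1, 35.6 and 34.9 with rapamycin, 23.9, 23.3 and 24.2 with Torin1 and 25.7, 25.4 and 24.4 with RapaLink-1. The rapamycin libraries lay just below the controls and the others far below, with changes of -0.17 ± 0.039, -0.73 ± 0.042 and -0.65 ± 0.042 (adjusted p = 9.02e-05, 5.85e-38 and 1.57e-33). Timm10b (ENSMUSG00000089847, chr7:105640056-105643637, plus strand), which docks the small chaperones on the channel, read 8.96, 9.05 and 8.76 CPM with DMSO, 7.98, 7.13 and 8.72 with rapamycin, 6.67, 6.83 and 6.75 with Torin1 and 6.14, 6.74 and 6.97 with RapaLink-1. It changed by -0.16, -0.40 and -0.43, the first not called (adjusted p = 0.0681) though called without rapamycin replicate 3 (-0.24, adjusted p = 0.0169). Timm29, a further subunit, changed by -0.13, -0.40 and -0.33, and its rapamycin call was lost under upper-quartile scaling (-0.064, adjusted p = 0.0929) and with the 5 CPM filter (-0.069, 0.0614).

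In TIM23, the channel for cleavable leaders, all 5 genes were lower with Torin1 and RapaLink-1 and 4 with rapamycin. Beside this, 82.4% to 88.2% of the 34 import genes and 32.2% to 38.3% of all tested genes were lower. Timm23 (ENSMUSG00000013701, chr14:32180162-32201898, minus strand), the channel subunit, read 103, 102 and 105 CPM with DMSO, 74.1, 75.0 and 75.0 with rapamycin, 56.8, 56.2 and 57.9 with Torin1 and 55.8, 57.3 and 58.7 with RapaLink-1. The libraries stepped down without overlap from DMSO to rapamycin to the other 2 compounds, with changes of -0.47 ± 0.027, -0.86 ± 0.028 and -0.85 ± 0.028 (adjusted p = 1.32e-37, 8.65e-68 and 3.33e-67). Gm10273 and other annotated copies match Timm23 closely, so reads could be shared or dropped. The fullest copy, Gm16209, held 155 counts against 30979, which cannot show how many reads of Timm23 were affected. Timm50 (ENSMUSG00000003438, chr7:28305516-28312072, minus strand), the receptor that takes leaders from TOM, read 59.2, 58.6 and 59.7 CPM with DMSO, 48.5, 45.9 and 43.5 with rapamycin, 32.7, 33.3 and 32.7 with Torin1 and 34.4, 32.9 and 32.8 with RapaLink-1. It followed the same steps, with -0.37, -0.85 and -0.83. Timm21, which links the 2 channels, changed by -0.22, -0.21 and -0.31, and its Torin1 call was lost under upper-quartile scaling (-0.083, adjusted p = 0.0923).

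The 2 forms of Timm17, a further channel subunit, differed under rapamycin. Timm17a, the form whose protein is broken down under stress, read 73.7, 78.6 and 76.3 CPM with DMSO, 61.6, 56.8 and 58.4 with rapamycin, 52.2, 56.5 and 55.1 with Torin1 and 50.2, 52.5 and 49.9 with RapaLink-1 and changed by -0.37, -0.48 and -0.58, each called. Timm17b read 37.3, 37.6 and 36.7 CPM with DMSO, 40.7, 37.6 and 36.9 with rapamycin, 29.9, 29.0 and 28.4 with Torin1 and 28.0, 27.6 and 28.1 with RapaLink-1. Its rapamycin and DMSO libraries overlapped, with a change of 0.047 ± 0.039 (adjusted p = 0.298), while it fell by 0.36 with Torin1 and 0.41 with RapaLink-1. With the libraries scaled to the upper quartile, Timm17b was called higher with rapamycin (0.11, adjusted p = 0.00956), as it was with the 5 CPM filter (0.11, 0.0107).

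Ratios of related subunits within a library do not depend on scaling. For 5 pairs, the log2 ratio of counts, with 2 counts added to each, was compared with DMSO by a two-sided exact permutation test for each compound, 15 tests in all, in which 3 against 3 libraries cannot go below p = 0.1. The ratio of Timm17a to Timm17b was 1.03 ± 0.045 (SD, n = 3) with DMSO and was lower by 0.42 with rapamycin, 0.13 with Torin1 and 0.17 with RapaLink-1. The ratio of Tomm40 to Tomm40l (2.96 ± 0.031) was lower by 0.27, 0.62 and 0.40, and that of Timm8a1 to Timm8b (-0.74 ± 0.13) by 0.67, 0.83 and 0.90. The ratio of Mtx1 to Mtx2 (-0.31 ± 0.035) was lower by 0.12, 0.17 and 0.22. In these 12 tests no treated library overlapped the controls, so each gave the smallest exact p of 0.1, adjusted 0.107, and none passes 0.05. The ratio of the processing peptidase subunits Pmpca to Pmpcb (0.65 ± 0.019) moved by 0.12, -0.069 and 0.015. Its rapamycin and Torin1 tests also gave the smallest exact p of 0.1 (adjusted 0.107), and its RapaLink-1 test an exact permutation p of 0.7.

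**Figure D4:**
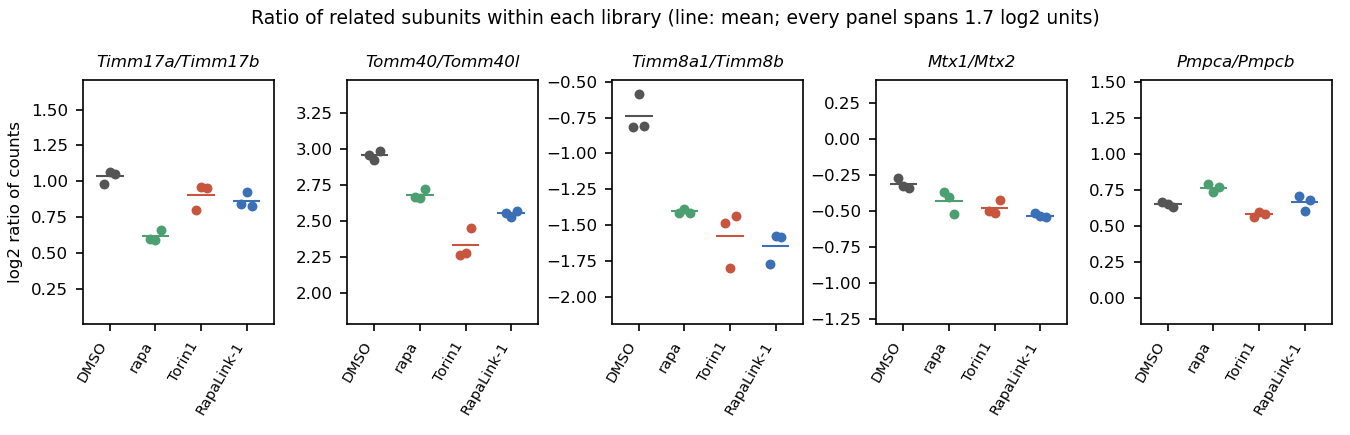
Log2 ratio of the counts of 2 related genes (vertical axis, every panel spanning the same length) in each library, with the group mean as a line. The ratio of Timm17a to Timm17b is lowest with rapamycin (mean 0.62 against 1.03 with DMSO), that of Tomm40 to Tomm40l lowest with Torin1 (2.33 against 2.96), and that of Pmpca to Pmpcb stays between 0.58 and 0.77 in all group means.

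Among the motor genes, the chaperone and its exchange factor fell with each compound, and the anchor Timm44 fell with rapamycin and RapaLink-1. Hspa9 (ENSMUSG00000024359), mitochondrial Hsp70, read 1094, 1100 and 1085 CPM with DMSO, 659, 668 and 656 with rapamycin, 689, 683 and 678 with Torin1 and 686, 684 and 693 with RapaLink-1. All 9 treated libraries lay far below the controls, and the rapamycin libraries lay below those of the other compounds. Hspa9 was 1.65-fold, 1.60-fold and 1.59-fold lower, on the log2 scale -0.72 ± 0.015, -0.68 ± 0.015 and -0.67 ± 0.015 (adjusted p = 1.45e-95, 7.43e-93 and 5.96e-92). Grpel1 (ENSMUSG00000029198, chr5:36464998-36474080, plus strand), its nucleotide exchange factor, read 77.7, 74.0 and 73.2 CPM with DMSO, 58.6, 58.4 and 58.5 with rapamycin, 50.1, 48.3 and 49.8 with Torin1 and 47.8, 49.0 and 48.1 with RapaLink-1. It stepped down as Timm23 did, with changes of -0.36, -0.60 and -0.63. Timm44, which anchors the motor to the channel, read 77.1, 76.1 and 75.8 CPM with DMSO, 63.2, 59.8 and 61.1 with rapamycin, 75.6, 73.4 and 73.1 with Torin1 and 68.6, 69.6 and 67.7 with RapaLink-1. Its rapamycin libraries were lowest, with changes of -0.31, -0.045 and -0.15, of which the Torin1 value was not called. Under upper-quartile scaling the Torin1 value was 0.081 and called higher (adjusted p = 0.00687) and the RapaLink-1 value was -0.017 and not called (0.601), while without Torin1 replicate 1 the Torin1 value was -0.068 and called lower (0.0436). The J-related regulator Pam16 changed by -0.18, 0.091 and -0.0053, called with rapamycin alone, and under that scaling its Torin1 and RapaLink-1 values were 0.22 and 0.13 and called higher (adjusted p = 2.24e-05 and 0.0106). Its Torin1 value was also called higher without DMSO replicate 3 (0.12) or Torin1 replicate 2 (0.13). With the 5 CPM filter Pam16 was likewise called higher with Torin1 (0.18), and with DESeq2 size factors Timm44 was called lower with Torin1 (-0.061, adjusted p = 0.0429). The J-protein Dnajc19 changed by -0.14, -0.27 and -0.24, its rapamycin call being lost by DESeq2 (adjusted p = 0.0657) and without DMSO replicate 1, rapamycin replicate 2 or rapamycin replicate 3 (0.192, 0.11 and 0.101). The rapamycin call of Dnajc19 was also lost under upper-quartile scaling (-0.078), with the 5 CPM filter (-0.083) and with only the 2 groups fitted (-0.12), and its RapaLink-1 call under upper-quartile scaling (-0.10, adjusted p = 0.0787).

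Among the genes that act after import, the peptidase fell with each compound and the insertase fell with rapamycin and rose with the others. Pmpca (ENSMUSG00000026926, chr2:26389339-26397122, plus strand), a subunit of the peptidase that removes leaders, read 171, 171 and 171 CPM with DMSO, 149.8, 143 and 144 with rapamycin, 126, 129.7 and 125 with Torin1 and 131, 129 and 129.5 with RapaLink-1. The groups stepped down without overlap between DMSO, rapamycin and the other 2 compounds, with changes of -0.23, -0.43 and -0.39; 20.4% of its exonic bases overlap Inpp5e on the opposite strand. The catalytic subunit Pmpcb changed by -0.35, -0.36 and -0.41. Oxa1l (ENSMUSG00000000959, chr14:54360841-54369673, plus strand), which inserts proteins into the inner membrane from the matrix side, among them those made by mitochondrial ribosomes, read 71.4, 68.7 and 67.0 CPM with DMSO, 61.9, 62.0 and 61.3 with rapamycin, 92.8, 94.5 and 94.1 with Torin1 and 88.7, 85.2 and 89.8 with RapaLink-1. The rapamycin libraries lay below all controls, and the Torin1 and RapaLink-1 libraries above them. Its changes were -0.16 ± 0.029, 0.44 ± 0.028 and 0.35 ± 0.028 (adjusted p = 4.42e-07, 2.57e-34 and 9.83e-25), the largest rises among the 34 genes with Torin1 and with RapaLink-1.

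Torin1 and rapamycin were then compared directly, at the doses given, which differ. Of the 34 genes, 22 were lower and 6 higher with Torin1 (33.2% and 34.2% of all tested genes), with a median of -0.15. RapaLink-1 gave 23 lower and 6 higher against rapamycin (33% and 32%), with a median of -0.21. The libraries did not overlap for 27 and 29 genes (69.2% and 67.4%). These comparisons share the rapamycin libraries. The largest steps below rapamycin were those of Timm13 at -0.67 ± 0.034 and -0.68 ± 0.034, Tomm40 at -0.60 ± 0.032 and -0.55 ± 0.032, Timm22 at -0.56 ± 0.043 and -0.49 ± 0.043, and Tomm6 at -0.55 ± 0.089 and -0.50 ± 0.089 for Torin1 and RapaLink-1 against rapamycin.

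The genes higher than with rapamycin were Oxa1l, Tomm20, Timm44, Tomm34, Pam16 and Hspa9, and their values with Torin1 and with RapaLink-1 are given side by side. Oxa1l was higher by 0.60 ± 0.028 and 0.51 ± 0.029 (adjusted p = 6.96e-48 and 4.4e-39), Tomm20 by 0.43 ± 0.019 and 0.41 ± 0.019, and Timm44 by 0.27 ± 0.029 and 0.16 ± 0.030. Tomm34 and Pam16 were higher by 0.25 and 0.18 and by 0.27 and 0.17. Hspa9 was higher by only 0.047 ± 0.015 and 0.056 ± 0.015. Its Torin1 call was lost without any 1 of the 3 Torin1 libraries (0.021 to 0.032), and its RapaLink-1 call without RapaLink-1 replicate 3 (0.036). Chchd4, Timm9, Timm10 and Timm21, lower than DMSO with each compound, were called neither way between rapamycin and either of the others. Some small steps were not called under every setting. Without rapamycin replicate 3, Timm10b was called neither with Torin1 (-0.17) nor with RapaLink-1 (-0.19). The Torin1 step of Samm50 was lost without rapamycin replicate 1 (-0.041) or 3 (-0.053), with the 5 CPM filter (-0.019) and under upper-quartile scaling, where it was 0.011. The RapaLink-1 step of Pmpcb was lost without rapamycin replicate 1 or 2 or RapaLink-1 replicate 1 or 3 (-0.061 to -0.054), by DESeq2 (-0.060), with its size factors (-0.057), without a filter on low counts (-0.064) and with the 5 CPM filter (-0.032), and under upper-quartile scaling it was 0.015. Under upper-quartile scaling the Torin1 steps of Timm17a (-0.047), Dnajc19 (-0.065), Timm8b (-0.070) and Tomm70a (-0.0044) and the RapaLink-1 step of Tomm70a (-0.024) were lost too. The Torin1 step of Tomm70a was also lost with the 5 CPM filter (-0.035), that of Timm8b without Torin1 replicate 3 (-0.11), and that of Dnajc19 with the 5 CPM filter (-0.095), by DESeq2 (-0.14) and without rapamycin replicate 1 (-0.067) or Torin1 replicate 3 (-0.13).

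RapaLink-1, which contains rapamycin and a kinase inhibitor, was close to Torin1 in most of these genes. Of the 34, 6 were lower with RapaLink-1 than with Torin1 and 0 higher, where 16.4% and 16.7% of all tested genes were, and the median was -0.031. DESeq2 called 3 lower and 0 higher, and at an unadjusted p under 0.05 edgeR also gave 0 higher. The 6 were Tomm5 (-0.13), Timm44 (-0.11), Timm17a (-0.10), Oxa1l (-0.094), Tomm7 (-0.095) and Samm50 (-0.088). Without RapaLink-1 replicate 2 only 3 were lower, and without Torin1 replicate 2 there were 2 higher. Timm44 alone of the 6 was called without each library in turn: Oxa1l and Samm50 were lost without RapaLink-1 replicate 2, Tomm7 without that library or Torin1 replicate 2, Tomm5 without Torin1 replicate 1 or RapaLink-1 replicate 3, and Timm17a without Torin1 replicate 2 or 3 or RapaLink-1 replicate 1 or 3. Libraries did not overlap for 8 genes (42.2% of all tested genes). For the 28 genes with no call, the 95% intervals of RapaLink-1 minus Torin1 reached from -0.32 (Tomm40l) to 0.24 (Tomm6), and for the abundant Hspa9 the interval was -0.021 to 0.039.

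Other genes of import and of the mitochondrial interior were described from lists. Of all tested genes, 32.2% were lower and 27.5% higher with rapamycin, 38.3% and 39.8% with Torin1, and 37.9% and 38.7% with RapaLink-1. Of 18 other import genes, 12 were lower and 3 higher with rapamycin (66.7% and 16.7%). With Torin1 13 were lower and 5 higher (72.2% and 27.8%), and with RapaLink-1 13 and 2 (72.2% and 11.1%). Hspd1 and Hspe1, the matrix chaperonin that folds imported proteins, changed by -0.89, -1.04 and -1.03 and by -0.71, -0.59 and -0.62. Dnajc15, a relative of Dnajc19, changed by -0.43, -0.66 and -0.77, while Immp2l, a subunit of the inner membrane peptidase, rose by 1.03 with Torin1 and 0.83 with RapaLink-1 and was not called with rapamycin (0.083). Of 8 tested genes of the cristae complex and its partners (Mic13 matched no symbol), 6, 6 and 7 (75%, 75% and 87.5%) were lower with rapamycin, Torin1 and RapaLink-1, and 0 higher. Among them Apoo changed by -0.65, -0.93 and -0.89, Minos1 by -0.082, -0.86 and -0.85, Immt by -0.38, -0.60 and -0.70 and Dnajc11 by -0.27, -0.56 and -0.59. Of 13 genes of mitochondrial proteases and stress, 10, 9 and 10 (76.9%, 69.2% and 76.9%) were lower and 3 (23.1%) higher in each comparison. Atf5, a transcription factor of the mitochondrial stress response, changed by -0.87, -1.59 and -1.51, the protease Lonp1 by -0.42, -0.63 and -0.59 and the prohibitin Phb by -0.54, -0.61 and -0.65. Pink1, a kinase that accumulates on mitochondria when import fails, rose by 0.87, 1.41 and 1.32.

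The starts of 7 of the 36 genes (19.4%) lay within 1000 bases of a protein-coding gene transcribed away from them, against 6.79% of the 21811 protein-coding genes. The latter include genes with too few counts to be tested, and the share among tested genes alone was not computed. The pairs were Pmpca and Entr1, Timm23 and Parg, Timm17b and Pqbp1, Timm8b and Sdhd, Chchd4 and Tmem43, Timm9 and 2700049A03Rik, and Tomm6 and Frs3, 23, 51, 88, 98, 157, 164 and 644 bases apart. Tmem43 fell with Chchd4, by 0.31, 0.92 and 0.94 with rapamycin, Torin1 and RapaLink-1. Sdhd, a subunit of respiratory complex II, fell with Timm8b and further, by 0.29, 0.65 and 0.72. Parg, which removes poly(ADP-ribose), fell by 0.11, 0.20 and 0.11, less than Timm23. Frs3 went the other way from Tomm6, with 0.76, 1.28 and 1.33. Entr1 rose by 0.14 with rapamycin, where Pmpca fell, and changed by -0.082 and -0.14 with Torin1 and RapaLink-1. Pqbp1 changed by -0.20, -0.34 and -0.43, while Timm17b was not called with rapamycin. 2700049A03Rik changed by -0.028 with rapamycin (adjusted p = 0.602), where Timm9 fell, and by -0.59 and -0.50 with the others.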

How the data were processed

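RNA of mouse embryonic fibroblasts was sequenced in 12 libraries, grouped by the treatment label and numbered as in the titles. Each library has 1 deposited table of whole-number counts, written by featureCounts per the file headers. The submitters' processing notes name Trimmomatic 0.36, STAR 2.5.2b, Subread 1.5.2, DESeq2 and GRCm38. Strand setting, treatment of reads with several matches and annotation release were not given in the sources used here. Counts of genes with exonic overlap or close copies (95% identity over 150 bases, a length set after the first hits were seen) are uncertain. Results marks only some of them. Among the others, with counts of both genes over all libraries, Timm8b overlaps Nkapd1 in 15.6% of its exonic bases (16291 against 11774 for Timm8b). Grpel1 overlaps Tada2b in 11.65% (13787 against 24460). Timm10b (3206) overlaps Gm45799 in 10.5% (116) and Arfip2 in 7.7% (17095). Dnajc19 overlaps Fxr1 in 4.4% (77328 against 7261). Pam16 overlaps Glis2 in 8.6% (31385 against 9213) and Oxa1l overlaps Slc7a7 in 6.1% (277 against 32897). Close copies were found for 12 genes, among them Timm8a1 (Gm9797, 105 counts against 4916) and Pam16 (Gm9803, 85 against 9213). Symbols came from GENCODE M21, which held 49056 of the 49315 gene IDs, and positions are those of the count tables.

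Genes were tested in R 4.3.3 with edgeR 4.0.16 (limma 3.58.1 loaded with it). The filter filterByExpr by group left 15917 genes, libraries were scaled with TMM factors, and all 12 entered a robust quasi-likelihood fit on group with 8 residual degrees of freedom and a biological coefficient of variation of 1.48%. The p-values, from both sides, were adjusted by the Benjamini-Hochberg method over all genes tested, and an adjusted p under 0.05 was called; every adjusted p of a gene is from this test unless DESeq2 1.42.0 or another setting is named. Standard errors follow from the test statistic, and 95% intervals from its degrees of freedom. CPM uses the TMM-scaled library sizes, and depths were 30075870 to 39423703 counts. Standard errors tended to be larger for genes with fewer counts. With rapamycin against DMSO they were 0.015 for Hspa9, 0.032 for Tomm7 and 0.052 for Timm9 on the log2 scale. The script was tested on simulated counts.

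The genes and all lists were chosen with earlier results of these data known. Values in every library were given for the 2 genes of each role with the largest absolute change against DMSO, for genes called in opposite directions and for those against their role's majority with Torin1; Tomm70a, Chchd4, Timm17a, Timm17b and Timm44 were added after their values were seen. Of the other lists, up to 4 genes with the largest absolute change with Torin1 were named. Alternatives were other scalings and filters, DESeq2, fits on 2 groups, a replicate block and leaving out each library; for single genes between compounds they were kept only where the gene was called, and the protein-coding comparator for promoters was added after the first comparison was seen.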

Additional observations from a re-analysis of the deposited data

How the results depend on the processing

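Counts of lower import genes against DMSO stayed within 26 to 30 under all scalings, filters, tests and left-out libraries, and their medians stayed negative. Under upper-quartile scaling the higher genes numbered 2 with rapamycin, 6 with Torin1 and 5 with RapaLink-1 against DMSO, and the medians were -0.22, -0.31 and -0.28 (-0.084 for Torin1 and -0.14 for RapaLink-1 against rapamycin, -0.020 for RapaLink-1 against Torin1). With genes of a mean of at least 5 CPM, 2 were higher with rapamycin and 5 with Torin1, and the medians were -0.22, -0.34 and -0.34 against DMSO, -0.18 for RapaLink-1 against rapamycin and -0.036 against Torin1. With no filter on low counts, 0 genes were higher with rapamycin and the RapaLink-1 median was -0.44. DESeq2 gave 0 higher with rapamycin, a RapaLink-1 median of -0.44 (-0.41 when only the 2 groups were fitted), and 3 lower for RapaLink-1 against Torin1 with a median of -0.019 (-0.021 with DESeq2 size factors).

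Genes near 0 changed sign: under upper-quartile scaling Timm44 with Torin1 (0.081), Tomm7 (0.073) and Pam16 (0.13) with RapaLink-1, Samm50 for Torin1 against rapamycin (0.011) and Pmpcb for RapaLink-1 against rapamycin (0.015). With the 5 CPM filter, Timm44 (0.046), Tomm7 (0.021) and Pam16 (0.080) did so in the same comparisons with DMSO, and Pam16 with RapaLink-1 was 0.0059 with only 2 groups fitted and -0.046 to 0.023 with each library left out in turn, above 0 without DMSO replicate 2 or 3 or RapaLink-1 replicate 2. The cause was not tested.

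Leaving out each library gave 27 to 30 lower and 0 to 1 higher with rapamycin, 28 to 29 and 3 to 4 with Torin1, and 29 to 30 and 2 with RapaLink-1 against DMSO. It gave 3 to 7 lower and 0 to 2 higher for RapaLink-1 against Torin1, and the 6 medians ranged from -0.30 to -0.24, -0.45 to -0.43, -0.44 to -0.41, -0.19 to -0.14, -0.22 to -0.18 and -0.040 to -0.019. The log2 ratio of Pmpca to Pmpcb with RapaLink-1 ranged from -0.0058 to 0.044, the only ratio to change sign.

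The replicate numbers did not pair the samples, with correlations of -0.039 to 0.059 between same-numbered deviations. The fit with the replicate number as a block gave the same counts of calls (30 lower with rapamycin, 28 with Torin1 and 29 with RapaLink-1), with medians of -0.28, -0.43 and -0.42.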
